A study of Mus musculus with 18 samples.

Results

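Transcripts of 41 genes of the interferon response and of antigen presentation were followed in mouse livers injured with carbon tetrachloride, out of 34937 genes counted. The members are a list of gene symbols, each of which matched 1 gene in the count tables. By role they are 4 transcription factors, 14 antiviral effectors and their regulators, 8 interferon-induced GTPases, 10 genes of the MHC class I pathway and 5 of the class II pathway. In 12ON livers, 30 of the 41 were lower than in group 12, among them all 10 class I genes, and 4 of the 5 class II genes were higher. Of all tested genes, 22.6% were lower and 24% higher.

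Interferons are secreted proteins that bind receptors on nearly all cells. Janus kinases at the receptors then activate STAT proteins, and a complex of STATs with IRF9 binds interferon-stimulated response elements in promoters. MHC class I molecules, built with the light chain B2M, show peptides from inside the cell, which are cut by the proteasome, moved by the TAP transporter and loaded with the help of tapasin. MHC class II molecules are made mainly by professional antigen-presenting cells, need the invariant chain CD74 for assembly and depend on the coactivator CIITA, while NLRC5 is the corresponding coactivator of class I genes. In the liver, class I molecules and their partners are made by hepatocytes and by most other cells. Class II molecules are made there by cells that include Kupffer cells, dendritic cells and B cells.

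Poly-A RNA was sequenced from 18 livers, 1 library per mouse, in 6 groups of 3 mice. All groups had received carbon tetrachloride, a hepatotoxin, in oil by intraperitoneal injection in a dose of 0.5 µL per g. The mice carry MycER, which is MYC fused to part of the estrogen receptor, and tamoxifen (1 mg daily, intraperitoneal) activates it. Group 12 was sampled 12 days after injury without activation, and group 12ON at 12 days with activation. The OFF groups are labelled as sampled 1, 2, 3 and 7 days after injury without activation, and are called 1OFF, 2OFF, 3OFF and 7OFF. The design text sets 12ON against 12 and the OFF groups against 12ON. Whether MycER was ever switched on in the OFF mice is not in the labels. They also do not say whether group 12 was given tamoxifen, or the strain, age and sex of the mice. They name neither the promoter nor the cell type that drives MycER.

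The libraries held 23057899 to 75276898 counts, and all 41 members passed the filter on low counts, which left 17789 genes. The level of a member is given as CPM, its count scaled to a common library size with factors from the trimmed mean of M values (TMM). A difference is given as a log2 fold change with its standard error, and is called when the adjusted p of edgeR's quasi-likelihood test is under 0.05 after Benjamini-Hochberg adjustment over all 17789 genes. Group means carry the SD of 3 mice. The labels do not say more about how the mice of a group were related, and p-values measure the spread between these libraries. Xist, which marks female samples, lay at 276 to 455 CPM in 1 library each of 12, 12ON, 2OFF, 3OFF and 7OFF, and at 0.210 to 1.94 CPM in the others. Mitochondrial transcripts made up 4.80% to 5.25% of a group 12 library and 6.42% to 7.11% of a 12ON library. All 9 hepatocyte markers examined were detected in every group, with a summed level of 145000 to 157000 CPM in group 12 and 45700 to 56300 CPM in 12ON. In bulk samples, fewer cells of a type and less RNA per cell cannot be told apart.

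Promoter sequences are shown first, since the roles differ in the elements found there. RefSeq promoter windows in GRCm38.p6, from 250 bases before to 50 bases after each start, were matched for 30 of the 41 members. Oas2, Dhx58, Ciita, Gbp6, Mx1, Cd74, Mx2, H2-Ab1, Usp18, Tap2 and Nlrc5 were not matched. The core of the interferon-stimulated response element was searched as GAAANNGAA on both strands. It occurred in 14 of the 30 members (46.7%) and in 9.76% of 27025 genes with such a window. By role it was in 6 of 7 GTPases, 6 of 9 antiviral effectors, 1 of 4 transcription factors, 1 of 8 class I genes and 0 of 2 class II genes. The gamma-activated site, searched as TTCNNNGAA on both strands, was in 8 of 30 members (26.7%) and 9.55% of all genes. The Y box of MHC promoters, searched as CTGATTGG on both strands, was in 6 of 30 members (20%) and 4.7% of all genes. Those 6 were 4 of 8 class I and 2 of 2 class II genes. The windows of Tap1 and Psmb9 overlap, and their Y box matches are the same bases, counted for both genes. The X2 box, searched as TGCGTCA on both strands, was in 0 of 30 members and 2.42% of all genes. That search took these exact letters only, so it does not show that the promoters lack other forms of the box. Matches of the response element can overlap each other, and in Bst2 one overlaps a gamma-activated site. A match describes the letters and is no measure of binding.

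The 160 bases before the start are printed 5′ to 3′ for 8 members from 4 of the roles, with matches to the response element, the gamma-activated site and the Y box in capitals. Isg15 (chr4:156200819-156200978, minus strand) and Ifit1 (chr19:34640729-34640888, plus strand) are antiviral effectors with several overlapping or neighbouring response elements. Gbp7 (chr3:142530176-142530335, plus strand) and Irgm1 (chr11:48871421-48871580, minus strand) are GTPases, and Gbp7 has gamma-activated sites before its response element. B2m (chr2:122147527-122147686, plus strand) is the class I gene with a response element, and H2-D1 (chr17:35262934-35263093, plus strand) has a Y box on the other strand. H2-Aa (chr17:34287824-34287983, minus strand) and H2-Eb1 (chr17:34305707-34305866, plus strand) are the class II genes, each with 1 Y box and neither of the interferon elements.
Isg15: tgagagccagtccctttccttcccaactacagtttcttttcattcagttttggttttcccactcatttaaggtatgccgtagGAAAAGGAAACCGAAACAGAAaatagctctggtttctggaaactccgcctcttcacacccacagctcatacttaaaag
Ifit1: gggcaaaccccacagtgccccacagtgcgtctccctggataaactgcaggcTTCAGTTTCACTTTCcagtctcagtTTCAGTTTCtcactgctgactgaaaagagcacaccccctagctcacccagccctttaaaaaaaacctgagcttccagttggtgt
Gbp7: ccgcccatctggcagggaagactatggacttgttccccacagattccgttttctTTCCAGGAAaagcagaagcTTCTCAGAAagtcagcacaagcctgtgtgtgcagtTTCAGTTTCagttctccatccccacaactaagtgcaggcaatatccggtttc
Irgm1: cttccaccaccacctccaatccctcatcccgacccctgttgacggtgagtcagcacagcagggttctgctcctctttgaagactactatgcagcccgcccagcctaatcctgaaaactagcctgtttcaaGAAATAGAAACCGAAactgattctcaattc
B2m: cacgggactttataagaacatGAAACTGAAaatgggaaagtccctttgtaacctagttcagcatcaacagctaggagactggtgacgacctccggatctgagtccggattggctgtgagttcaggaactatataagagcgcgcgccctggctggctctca
H2-D1: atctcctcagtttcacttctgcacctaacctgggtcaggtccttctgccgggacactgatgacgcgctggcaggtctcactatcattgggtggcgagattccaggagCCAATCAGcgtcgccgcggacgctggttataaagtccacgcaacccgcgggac
H2-Aa: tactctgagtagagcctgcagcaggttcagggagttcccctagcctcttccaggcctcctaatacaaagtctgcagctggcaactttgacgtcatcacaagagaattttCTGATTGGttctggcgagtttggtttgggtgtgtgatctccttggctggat
H2-Eb1: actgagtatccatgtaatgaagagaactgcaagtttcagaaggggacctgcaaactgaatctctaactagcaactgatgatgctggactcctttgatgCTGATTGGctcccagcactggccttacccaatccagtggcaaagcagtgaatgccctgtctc

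The first comparison was of 12ON with 12, livers of the same day with and without MycER activation. Of the 41 members, 30 were lower, 4 higher and 7 not called. Against these stand the 22.6% of all genes that were lower and the 24% that were higher. The median log2 fold change was -0.97 over the members and 0.00 over all genes. In 35 members the 3 libraries of 12ON all lay on 1 side of those of group 12, which held for 58.2% of all genes, and 31 of these 35 were lower. When the mitochondrial share entered the model, 18 members were lower and 1, Cd74, was higher. The share of all genes called in that model is not given, so this loss of calls cannot be read as particular to the members. The 15 calls that ended were those of Irf7, Ifit1, Ifit2, Ifit3, Mx2, Oas2, Oasl2, Bst2, Dhx58, Tapbp, H2-D1, Nlrc5, H2-Aa, H2-Ab1 and Ciita. Some of these kept nearly the same log2 fold change in that model, with -0.92 for Ifit1, -0.51 for Ifit2, -1.03 for Ifit3, -0.45 for Tapbp and 0.82 for Ciita, and others moved toward 0, with -0.75 for H2-D1 and 0.40 for H2-Aa. With total counts and no scaling factor, the median of all genes shifted by 0.49, 22 members were lower and 5 higher, and all genes split into 9130 higher and 1403 lower in place of 4269 and 4029.

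**Figure D1:**
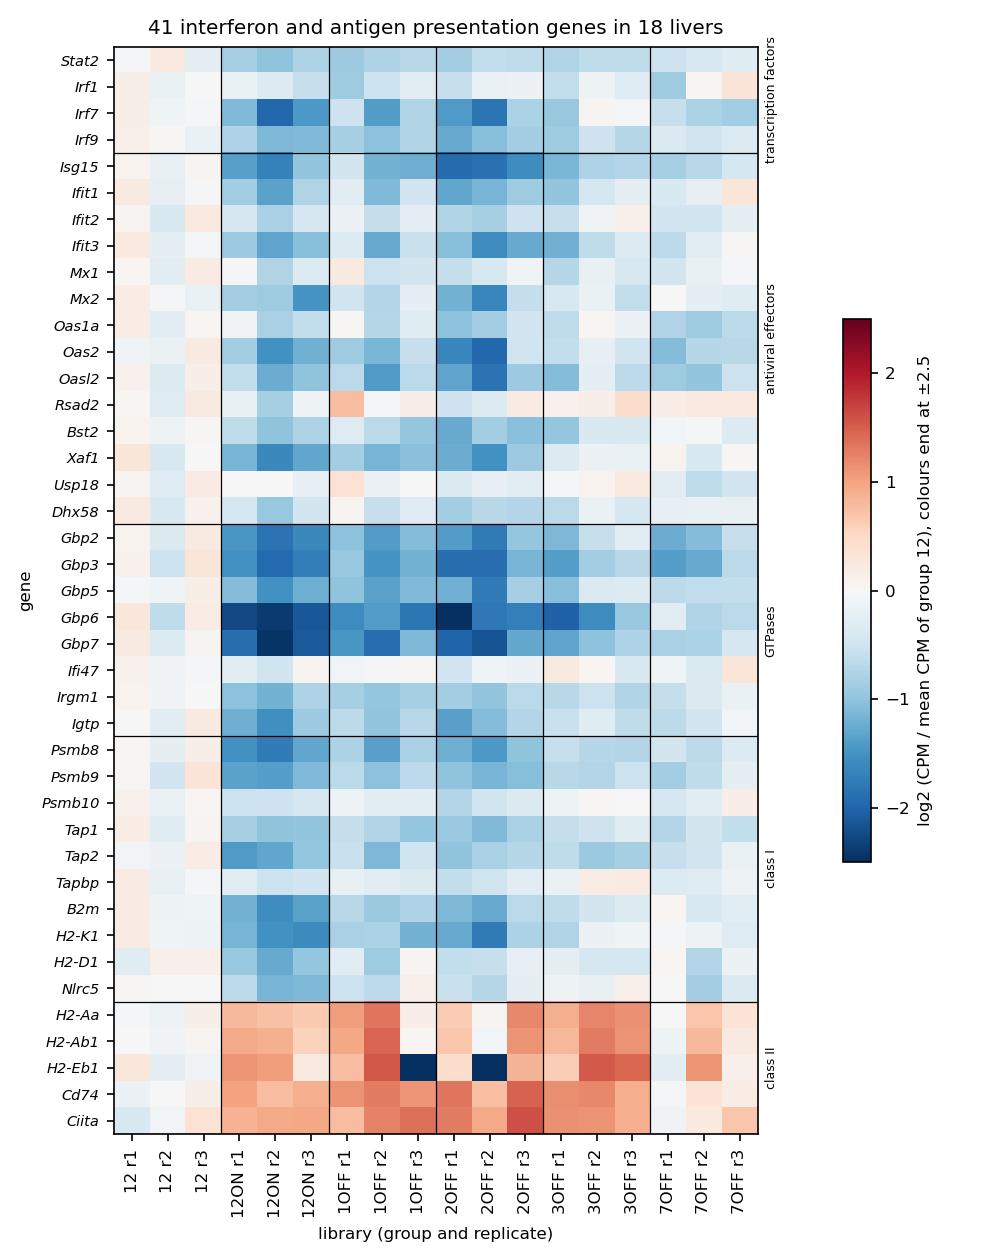
Levels of the 41 members (rows, ordered by role) in the 18 livers (columns, ordered by group), as log2 of CPM over the mean CPM of group 12. Blue is below that mean and red above it, and colours end at 2.5 in either direction, a limit passed by H2-Eb1 in 1OFF replicate 3 and 2OFF replicate 2 and by Gbp6 in 2OFF replicate 1.

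Among the transcription factors, 3 of 4 were lower. Irf7, which drives the amplification of type I interferon responses, lay at 119, 99.6 and 103 CPM in group 12 and at 50.1, 27.4 and 39.4 CPM in 12ON. All libraries of 12ON lay below all of group 12. The log2 fold change was -1.46 ± 0.30 (adjusted p = 0.00104), and with the mitochondrial term it was -1.01 with an adjusted p = 0.102. Stat2, the STAT that joins IRF9 in the type I pathway, lay at 77.5, 95.8 and 68.3 CPM against 45.5, 40.1 and 46.9 CPM (log2 -0.87 ± 0.12, adjusted p = 3.04e-05). Irf9, its DNA-binding partner, lay at 50.2, 47.0 and 41.3 CPM against 27.2, 21.1 and 21.4 CPM (log2 -0.99 ± 0.13, adjusted p = 2.77e-05). For neither of these genes did the groups overlap. Irf1, an early factor of the interferon-gamma response, lay at 40.8 to 50.2 CPM in group 12 and 30.5 to 40.4 CPM in 12ON and was not called (adjusted p = 0.238).

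Of the 14 antiviral effectors and regulators, 10 were lower and none higher, and their median log2 fold change was -0.87. Isg15, a ubiquitin-like protein that is joined to other proteins, lay at 17.5, 14.5 and 17.3 CPM in group 12 and at 6.39, 5.10 and 8.30 CPM in 12ON. All 3 libraries of 12ON were well below the lowest of group 12, and Isg15 fell by 1.32 ± 0.21 on the log2 scale (adjusted p = 0.000145). Xaf1, an interferon-induced regulator of cell death, lay at 17.5, 11.0 and 14.3 CPM against 6.41, 4.70 and 5.79 CPM (log2 -1.34 ± 0.19, adjusted p = 4.31e-05). Bst2, a membrane protein that holds budding virus at the cell surface, had the highest level of the 14 per exon length, with 233 RPKM (CPM per kilobase of exon) in group 12 and 134 in 12ON (log2 -0.80 ± 0.18).

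The 3 RNA-binding IFIT genes were all lower. Ifit1 differed by -0.96 ± 0.25 and Ifit3 by -1.08 ± 0.25 in log2, against -0.54 ± 0.19 for Ifit2, and the differences between the 3 genes were not tested. The call of Ifit2 ended without 12 replicate 1 (adjusted p = 0.0803), 12 replicate 3 (0.153) or 12ON replicate 2 (0.134). Of the oligoadenylate synthetase family, which activates RNase L, Oas2 (-1.17 ± 0.29) and Oasl2 (-0.93 ± 0.27) fell, and Oas1a was not called, at 10.8 to 14.8 CPM in group 12 and 7.39 to 12.2 CPM in 12ON. Of the Mx GTPases, which block virus replication, Mx2 fell (-1.05 ± 0.24), and Mx1 was not called, at 2.41 to 3.36 against 1.74 to 2.86 CPM. Dhx58, an RNA helicase of the RIG-I family, fell by 0.58 ± 0.19 on the log2 scale, and its call ended without 12 replicate 1 (adjusted p = 0.082), 12 replicate 3 (0.0607) or 12ON replicate 2 (0.0922). Rsad2, the antiviral enzyme viperin, lay at 10.2 to 15 CPM in group 12 and 7.19 to 11.7 CPM in 12ON and was not called. Usp18, which removes ISG15 from proteins and restrains the receptor, lay at 14.6 to 21.2 CPM in group 12 and 16.0 to 18.3 CPM in 12ON and was also not called. For Oas1a, Mx1, Rsad2 and Usp18 the groups overlapped.

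The interferon-induced GTPases held the lowest log2 fold changes of the members. Of the 8, 7 were lower, and the median log2 fold change was -1.44. Gbp6, a guanylate-binding protein gene (chromosome 5, 105270702 to 105293698 in GRCm38), lay at 34.8, 18.5 and 32.8 CPM in group 12 and at 6.0, 5.50 and 6.64 CPM in 12ON (log2 -2.24 ± 0.33, adjusted p = 6.51e-05). Gbp7 (chromosome 3, 142530342 to 142550149), whose promoter is printed above, lay at 40.5, 27.4 and 36.3 CPM against 9.38, 6.31 and 8.07 CPM (log2 -2.13 ± 0.26, adjusted p = 1.17e-05). In both, every library of 12ON was below the lowest of group 12, which was 12 replicate 2. Guanylate-binding proteins coat intracellular pathogens and their vacuoles. Gbp3 fell by 1.72 ± 0.27, Gbp2 by 1.63 ± 0.25 and Gbp5 by 1.26 ± 0.23 on the log2 scale. These genes are close relatives, and since multi-mapped reads were dropped, only reads over bases that tell them apart contribute. Of the Gbp6 exons, 29.0% also lie in the annotated gene Gm43302, and without strand the reads there count for both.

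The immunity-related GTPases act on vacuoles and in autophagy. Irgm1 (chromosome 11, 48861968 to 48871683) lay at 80.3, 71.3 and 75.5 CPM in group 12 and at 37.1, 33.3 and 44.5 CPM in 12ON (log2 -0.98 ± 0.12, adjusted p = 1.75e-05). Igtp, also called Irgm3, fell from 48.6 ± 8.05 to 21.2 ± 4.47 CPM (log2 -1.20 ± 0.20). Ifi47, of the same family, was not called, at 25.4 to 28.9 CPM in group 12 and 19.1 to 28.0 CPM in 12ON, where 12ON replicate 3 lay within the range of group 12.

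All 10 class I pathway genes were lower in 12ON, and their median log2 fold change was -1.13. B2m (chromosome 2, 122147686 to 122153083), the light chain shared by all class I molecules, lay at 1600, 1270 and 1290 CPM in group 12 and at 612, 475 and 552 CPM in 12ON. The groups did not overlap, and B2m fell by 1.34 ± 0.17 on the log2 scale (adjusted p = 2.24e-05). H2-K1 (chromosome 17, 33996017 to 34000333), a classical heavy chain, lay at 1300, 1040 and 1030 CPM against 500, 393 and 374 CPM (log2 -1.41 ± 0.23, adjusted p = 0.000133). H2-D1, the other classical heavy chain in the list, lay at 709, 954 and 957 CPM against 453, 365 and 446 CPM (log2 -1.05 ± 0.23, adjusted p = 0.00172). Per exon length, B2m stood at 1610 RPKM in group 12, H2-K1 at 430 and H2-D1 at 339. The ratio of B2m to H2-K1 in RPKM was 3.72 to 3.80 in group 12 and 3.66 to 4.47 in 12ON, and these ranges overlap. The heavy chain genes are near-identical to each other and to the H2-Q genes in places, and differ between mouse strains, so the split of reads between them is uncertain.

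The immunoproteasome subunits, which replace constitutive ones and change the peptides that are cut, were all lower, and differences between them were not tested. Psmb8 lay at 60, 50.4 and 65.1 CPM in group 12 and at 20.4, 17.3 and 23.7 CPM in 12ON, with no overlap (log2 -1.51 ± 0.16, adjusted p = 4.24e-06). Psmb9 fell by 1.27 ± 0.18 and Psmb10 by 0.49 ± 0.13 on the log2 scale. Of 14 constitutive core subunits examined, 3 were lower and none higher, and their median was -0.15 in log2. The ratio of Psmb8 to Psmb5, the subunit it replaces, in RPKM was 0.182 to 0.290 in group 12 and 0.0742 to 0.109 in 12ON. The ratio of Psmb9 to Psmb6 was 0.0701 to 0.153 in group 12 and 0.0518 to 0.0654 in 12ON. The ratio of Psmb10 to Psmb7 was 0.906 to 1.34 in group 12 and 0.820 to 0.956 in 12ON, which overlap. Under total counts with no scaling factor Psmb10 was at 0.00 in log2, so its direction rests on the scaling.

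Of the genes that move and load peptides, Tap1 and Tap2, the subunits of the transporter, lay at 35.9 ± 6.23 and 59.1 ± 7.31 CPM in group 12 and at 18.8 ± 1.37 and 25.4 ± 4.22 CPM in 12ON (log2 -0.94 ± 0.13 and -1.22 ± 0.17). Tapbp, which encodes tapasin, had the smallest fall of the class I genes, -0.43 ± 0.13 in log2. Its call ended without 12 replicate 1 (adjusted p = 0.0786) or 12ON replicate 2 (0.0565), and under total counts with no scaling factor its log2 fold change was 0.06. Nlrc5, the class I coactivator, lay at 18.1, 17.6 and 17.6 CPM in group 12 and at 11.1, 7.94 and 8.13 CPM in 12ON (log2 -0.97 ± 0.22, adjusted p = 0.00235). Tap1 and Psmb9 start from opposite strands of the same stretch of chromosome 17, and 212 bases of their exons overlap, where reads count for both. Other annotated genes overlap 18.5% of the Tap2 exons and 22% of the Tapbp exons.

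The class II genes went the other way. Cd74, the invariant chain, lay at 120, 131 and 147 CPM in group 12 and at 266, 225 and 248 CPM in 12ON, with every library of 12ON above every library of group 12 (log2 0.90 ± 0.16, adjusted p = 0.000333). Ciita, the coactivator of class II genes (chromosome 16, 10488178 to 10527564), lay at 1.87, 2.31 and 3.10 CPM against 4.43, 4.68 and 4.73 CPM (log2 0.91 ± 0.23, adjusted p = 0.00461). The 3 libraries of 12ON were close together and all above group 12. H2-Aa, the alpha chain of the I-A molecule, lay at 33.3, 30.9 and 37.7 CPM against 59.7, 56.6 and 53.2 CPM (log2 0.73 ± 0.27, adjusted p = 0.0383). H2-Ab1, its beta chain, lay at 34.3, 32.4 and 36.1 CPM against 65.7, 63.8 and 50.9 CPM (log2 0.81 ± 0.32, adjusted p = 0.0496). Neither chain overlapped between the groups, but both calls ended when any 1 of the 6 libraries was left out, with adjusted p from 0.0536 to 0.108 for H2-Aa and from 0.054 to 0.117 for H2-Ab1. H2-Eb1, the beta chain of the I-E molecule, lay at 25.6, 17.7 and 19.9 CPM against 45.4, 43.6 and 25.1 CPM and was not called, and 12ON replicate 3 lay within the range of group 12. With the mitochondrial term the calls of Ciita (adjusted p = 0.103), H2-Aa (0.512) and H2-Ab1 (0.48) also ended.

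Some class I genes that fell lie close to class II genes on chromosome 17. There, Psmb9, Tap1, Psmb8 and Tap2 span 34.3 kb, and 46.9 kb further on H2-Ab1, H2-Aa and H2-Eb1 span 53.0 kb, of which H2-Eb1 was not called. Cd74 and Ciita lie on other chromosomes. In all, 10 of the 41 members lie on chromosome 17.

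Markers of cells that make class II molecules were given the same test. Of 12 dendritic cell markers 1, Itgax, was higher in 12ON (log2 1.42 ± 0.36, and 0.85 with an adjusted p = 0.254 in the model with the mitochondrial share) and 2 were lower, and the summed level of the list was 15.5 to 21.9 CPM in group 12 and 20.4 to 23.2 CPM in 12ON. Of 12 Kupffer cell markers 6 were lower and none higher (1880 to 2400 CPM against 1120 to 1660 CPM). Of 9 B cell markers tested 7 were lower and none higher (16.6 to 20.9 CPM against 7.77 to 9.94 CPM). Of 8 monocyte markers 2 were lower and none higher (404 to 612 CPM against 278 to 359 CPM), and of 5 pan-leukocyte markers 1 was lower (192 to 213 CPM against 166 to 197 CPM). No marker of these lists was at 0 in every library. Cd74 was higher in 12ON, and so were the I-A chains, in calls that ended without any 1 of the 6 libraries. The part of each cell type in the class II result was not tested.

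Markers of the liver's other cells moved in both directions. All 9 hepatocyte markers and all 10 sinusoidal endothelial markers were lower in 12ON, the latter from 529 to 609 CPM down to 286 to 301 CPM summed. Of 13 T and NK cell markers tested, 3 were lower and none higher (10.1 to 13.1 CPM against 6.64 to 9.68 CPM). Of 7 cholangiocyte markers 6 were higher (32.5 to 94.0 CPM against 186 to 199 CPM), and of 9 stellate cell markers 5 were higher (420 to 532 CPM against 808 to 850 CPM). The part of these cells in the fall of the interferon and class I genes was not tested.

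Other genes of the pathway were counted from lists around the members. Transcripts of the interferons themselves were near absent, and none of 14 ligand genes passed the filter. Ifng, the type II interferon of T and NK cells, had 0 to 7 counts per library, and Ifnb1 had 1 count in all 18 libraries together. Of 9 receptor and kinase genes 3 were higher and 3 lower. Il10rb, a chain of the interferon-lambda receptor, differed by 0.38 ± 0.07 and Ifngr1, of the interferon-gamma receptor, by 0.46 ± 0.11. For the kinase gene Jak2 in 12ON vs 12 the difference was -0.32 ± 0.10. Jak2 in 12ON vs 12 was no longer called without 12 replicate 1 (adjusted p = 0.0635) or 12ON replicate 2 (0.0653), and its sign turned to 0.17 with total counts. Of 18 genes of nucleic acid sensing 9 were lower and none higher, with Zbp1, a sensor of Z-form nucleic acids, at -1.96 ± 0.29 and the adaptor Myd88 at -1.01 ± 0.13. Of 12 genes that restrain the response 6 were lower and none higher, with the phosphatase gene Ptpn6 at -0.70 ± 0.13.

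Of 45 further interferon-stimulated genes, 32 were lower and none higher, and their median was -0.86 in log2. Iigp1, an immunity-related GTPase with a level of 439 CPM in group 12 and 181 CPM in 12ON, differed by -1.28 ± 0.15, and Ube2l6, an enzyme of ISG15 conjugation, by -1.13 ± 0.15. Of 17 further class I genes 12 were lower and 1 higher, with a median of -0.79. The lipid-presenting Cd1d1 (-2.07 ± 0.19), the tapasin relative Tapbpl (-1.10 ± 0.12) and the heavy chain gene H2-Q4 (-1.17 ± 0.13) fell, and Psme1, a proteasome activator subunit, rose (0.31 ± 0.08). Of 16 further class II genes tested 2 were higher and 3 lower. Rfx5, a subunit of the complex that binds class II promoters and recruits CIITA, rose by 0.97 ± 0.12 on the log2 scale, from 10.3 to 20.2 CPM. H2-DMb1, which helps load class II molecules, rose by 0.81 ± 0.24, but H2-DMb1 in 12ON vs 12 was not called without 12 replicate 2 (adjusted p = 0.0674). H2-Ob, which opposes that loading and is made mainly in B cells, fell by 1.22 ± 0.37. When the mitochondrial share entered the model, the calls of Ifngr1 (adjusted p = 0.0551), Jak2 (0.0952) and H2-DMb1 (0.33) ended, and with total counts that of H2-Ob did (0.119).

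The second objective of the design text was to compare the OFF groups with 12ON. All 4 comparisons share the 12ON libraries. By the labels the OFF groups differ from 12ON in day after injury as well as in activation, and these cannot be told apart. At 1OFF, 0 of 41 members were called by edgeR, and of all genes 0.00562% were higher and 0% lower, which is 1 gene. At an unadjusted p under 0.05, 11 members were higher and none lower, and 14.4% of all genes passed that mark. DESeq2 called 3 members higher, Psmb8, B2m and H2-D1, among 526 genes in all. In 11 members the 3 libraries of 1OFF did not overlap those of 12ON, all of them higher, against 27.3% of all genes. B2m was one of these, at 860, 729 and 811 CPM in 1OFF against 475 to 612 CPM in 12ON.

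At 2OFF, 0 members were called, and 0% of all genes. At an unadjusted p under 0.05, 3 members were higher and 1 lower, and 17.1% of all genes passed that mark. DESeq2 called 0 members and 953 genes in all. Only 2 members did not overlap between 2OFF and 12ON, 1 higher and 1 lower, against 21.5% of all genes. Without 2OFF replicate 2, 1 member was called, Cd74, which lay at 335 and 367 CPM in the other libraries of 2OFF and at 224 CPM in that one.

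At 3OFF, 17 members were higher than in 12ON and none lower, where 15.3% of all genes were higher. With DESeq2 size factors in place of TMM, 2659 of all genes were higher and 3087 lower. The 17 members were 9 of the 10 class I genes, 5 of 8 GTPases, 2 of 14 antiviral genes, 1 of 4 transcription factors and none of the class II genes. H2-K1 lay at 671, 1010 and 1040 CPM, above the 374 to 500 CPM of 12ON in every library (log2 1.10 ± 0.22, adjusted p = 0.00191). Xaf1 lay at 11.2, 12.9 and 12.7 CPM, close together and above the 4.70 to 6.41 CPM of 12ON (log2 1.12 ± 0.19, adjusted p = 0.000498). Irf7 lay at 55.8, 112 and 105 CPM, and 3OFF replicate 1 was near the 50.1 CPM of the highest 12ON library (log2 1.22 ± 0.30, adjusted p = 0.00624). Gbp7 lay at 13.9, 17.1 and 20.4 CPM (log2 1.11 ± 0.25, adjusted p = 0.00369). The call of 8 of the 17 ended without at least 1 library, and the count was 9 without 12ON replicate 2 and 11 without 3OFF replicate 2. With total counts and no scaling factor, which shifted the median of all genes by -0.32, 8 members were higher, and all genes split into 952 higher and 6526 lower.

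At 7OFF, 21 members were higher and 3 lower than in 12ON, where 21.4% of all genes were higher and 22.7% lower. The median log2 fold change of the members was 0.61. B2m lay at 1440, 1070 and 1150 CPM and H2-K1 at 1080, 1030 and 904 CPM, all above 12ON (log2 1.16 ± 0.17 and 1.25 ± 0.23, adjusted p = 8.71e-05 and 0.000391). Gbp6 lay at 23.7, 17 and 17.9 CPM against 5.50 to 6.64 CPM in 12ON (log2 1.69 ± 0.33, adjusted p = 0.000662). Xaf1 lay at 15.1, 11.0 and 14.5 CPM (log2 1.26 ± 0.19, adjusted p = 7.79e-05), and Psmb8 at 42.4, 37.0 and 46.0 CPM (log2 1.03 ± 0.16, adjusted p = 0.000117). None of these genes overlapped with 12ON. Stat2 (0.47 ± 0.12) and Irf9 (0.59 ± 0.13) were called at 7OFF, though not with total counts (adjusted p = 0.698 and 0.231). Irf7 was not called by edgeR, at 71.9, 61.7 and 58.3 CPM, all above the 27.4 to 50.1 CPM of 12ON. DESeq2 called Irf7 there, among 8141 genes in all.

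The 3 members lower at 7OFF than in 12ON were Cd74, Ciita and Usp18. Cd74 lay at 128, 167 and 150 CPM, below the 225 to 266 CPM of 12ON (log2 -0.74 ± 0.16, adjusted p = 0.00171). Ciita lay at 2.27, 2.89 and 3.94 CPM (log2 -0.60 ± 0.23, adjusted p = 0.0421), a call that remained only without 7OFF replicate 3 and ended without any other library of the 2 groups (adjusted p 0.0618 to 0.161). Usp18 lay at 15, 11.8 and 13.2 CPM (log2 -0.40 ± 0.15, adjusted p = 0.0386), and its call ended without 12ON replicate 1 or 2 or 7OFF replicate 2 or 3 (adjusted p 0.0813 to 0.141). H2-Aa, H2-Ab1 and H2-Eb1 were not called, and their libraries of 7OFF spread from 34.4 to 54.9, 31.5 to 59.7 and 17.2 to 45.2 CPM. Of the other class II genes 8 of 16 were lower and 2 higher, with Rfx5 at -0.70 ± 0.11 and H2-DMb1 at -0.92 ± 0.24 (adjusted p = 0.0511 in the model with the mitochondrial share). The summed levels of Kupffer cell markers (954 to 1020 CPM) and of pan-leukocyte markers (104 to 165 CPM) were below their 12ON ranges at 7OFF. By gene, 5 of 12 Kupffer cell markers and 2 of 5 pan-leukocyte markers were lower, and the others were not called. Of 8 monocyte markers 0 were called. Of 12 dendritic cell markers 1 was higher, 1, Itgax, was lower (-1.83 ± 0.37) and 10 were not called, with a median of 0.39. Of 9 B cell markers 6 were higher. The part of these cells in the lower Cd74 and Ciita was not tested. With total counts and no scaling factor, which shifted the median of all genes by -0.42, 6 members were higher and 6 lower, and all genes split into 1348 higher and 8204 lower. With the mitochondrial term 14 were higher and 1 lower.

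**Figure D2:**
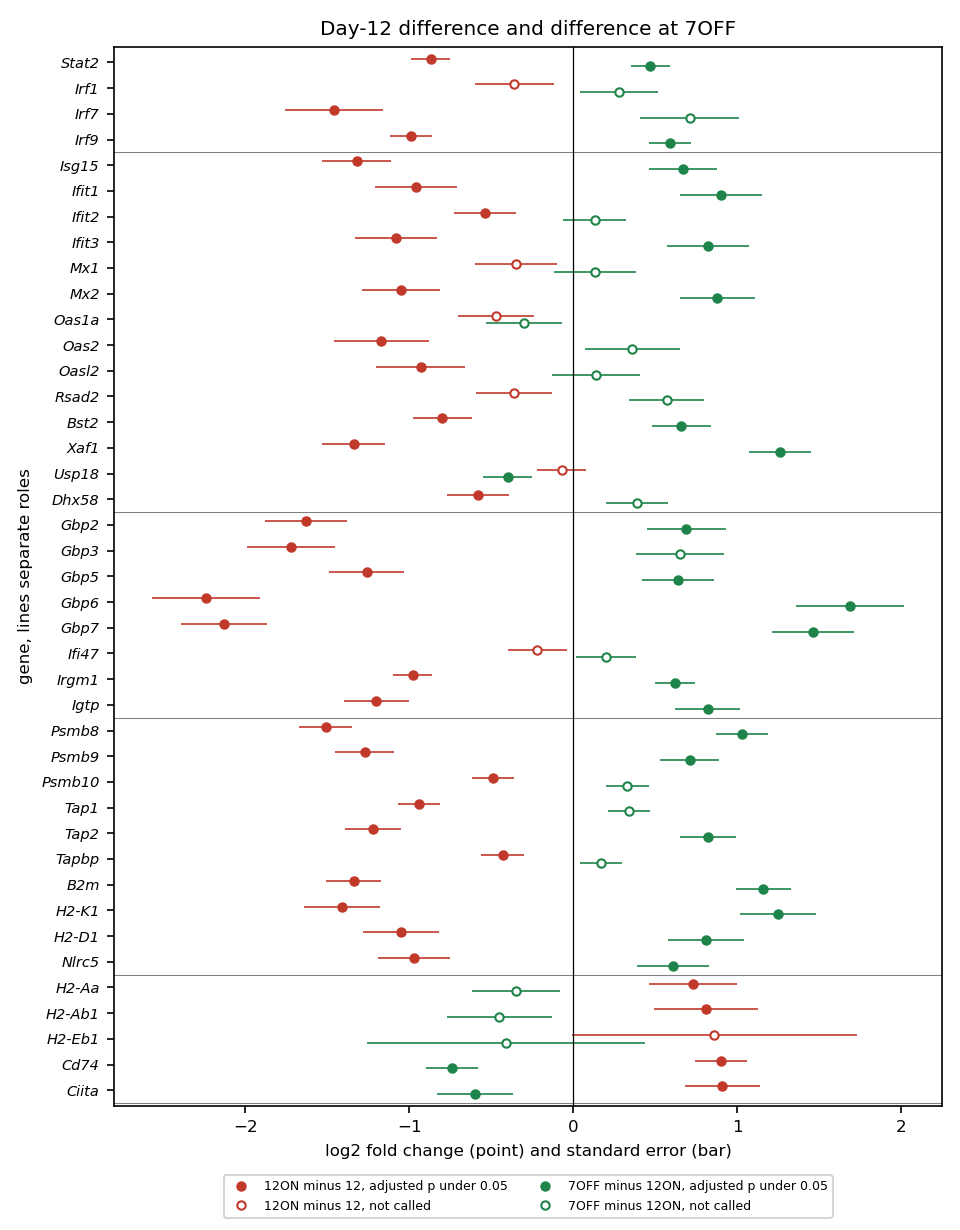
Log2 fold change (point) and standard error (bar) of each member in 12ON minus 12 (red) and 7OFF minus 12ON (green), with filled points for an adjusted p under 0.05. Both comparisons use the 12ON libraries. In the first 30 filled points lie left of 0 and 4 right of it, and in the second 21 lie right and 3 left.

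Other lists at 7OFF gave 20 of 45 further interferon-stimulated genes higher and 1 lower, and 10 of 17 further class I genes higher and 1 lower. Iigp1 stood at 1.26 ± 0.15, Cd1d1 at 1.84 ± 0.19 and H2-Q4 at 0.91 ± 0.13. Il10rb (-0.71 ± 0.07) and Ifngr1 (-0.63 ± 0.11) were lower. Hepatocyte markers were higher for 9 of 9 and sinusoidal endothelial markers for 8 of 10, and the part of these cells in the higher class I genes was not tested.

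The same OFF groups were also set against group 12, and these comparisons share the group 12 libraries. At 1OFF 21 members were lower and 4 higher, where 16.3% and 17.1% of all genes were. The 4 were Cd74, Ciita, H2-Aa and H2-Ab1. At 2OFF 29 were lower and 2 higher, Cd74 and Ciita, where 17% and 18.1% of all genes were. At 3OFF 12 were lower and 4 higher, again Cd74, Ciita, H2-Aa and H2-Ab1, where 7.95% and 9.47% of all genes were. At 7OFF 3 were lower and none higher, where 3.31% of all genes were lower. With DESeq2 size factors in place of TMM, 418 of all genes were higher and 611 lower at 7OFF. The calls of the I-A chains often ended when any of several single libraries was left out. H2-Aa was not called at 1OFF without 12 replicate 2 or 1OFF replicate 1 or 2 (adjusted p 0.0522 to 0.0988), nor at 3OFF without 12 replicate 2 (0.0535). H2-Ab1 was called at 1OFF only without 1OFF replicate 3 (0.0704 to 0.211 without any other library) and at 3OFF only without 3OFF replicate 1 (0.0619 to 0.0876 without any other). Cd74 had a log2 difference from group 12 of 1.17 ± 0.16 at 1OFF, 1.22 ± 0.16 at 2OFF and 1.10 ± 0.16 at 3OFF, and its 7OFF libraries (128 to 167 CPM) overlapped those of group 12 (120 to 147 CPM). With the mitochondrial term the counts of called members were 11 at 1OFF, 16 at 2OFF and 2 at 3OFF, the latter Gbp6 and Cd74, and without 3OFF replicate 1 the count at 3OFF was 10.

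The 3 members lower at 7OFF than in group 12 were Gbp2 (-0.94 ± 0.24), Gbp3 (-1.07 ± 0.26) and Tap1 (-0.60 ± 0.13). Tap1 lay at 21.6, 26.1 and 23.3 CPM against 41, 29 and 37.8 CPM, without overlap. Gbp3 lay at 8.04, 8.70 and 13.2 CPM against 22.5, 14.4 and 25.9 CPM, and Gbp2 at 9.47, 10.5 and 14.9 CPM against 23.7, 17.3 and 25.9 CPM, also without overlap. The count of 3 was 0 without 12 replicate 1 or 7OFF replicate 1, 1 without 12 replicate 3 or 7OFF replicate 2, and 5 without 12 replicate 2 or 7OFF replicate 3. DESeq2 called 10 members, all lower, among 1678 genes in all. B2m, H2-K1 and H2-D1 were not called, with 7OFF means of 1220 ± 200, 1010 ± 92.4 and 739 ± 194 CPM against 1390 ± 183, 1120 ± 155 and 873 ± 142 CPM.

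**Figure D3:**
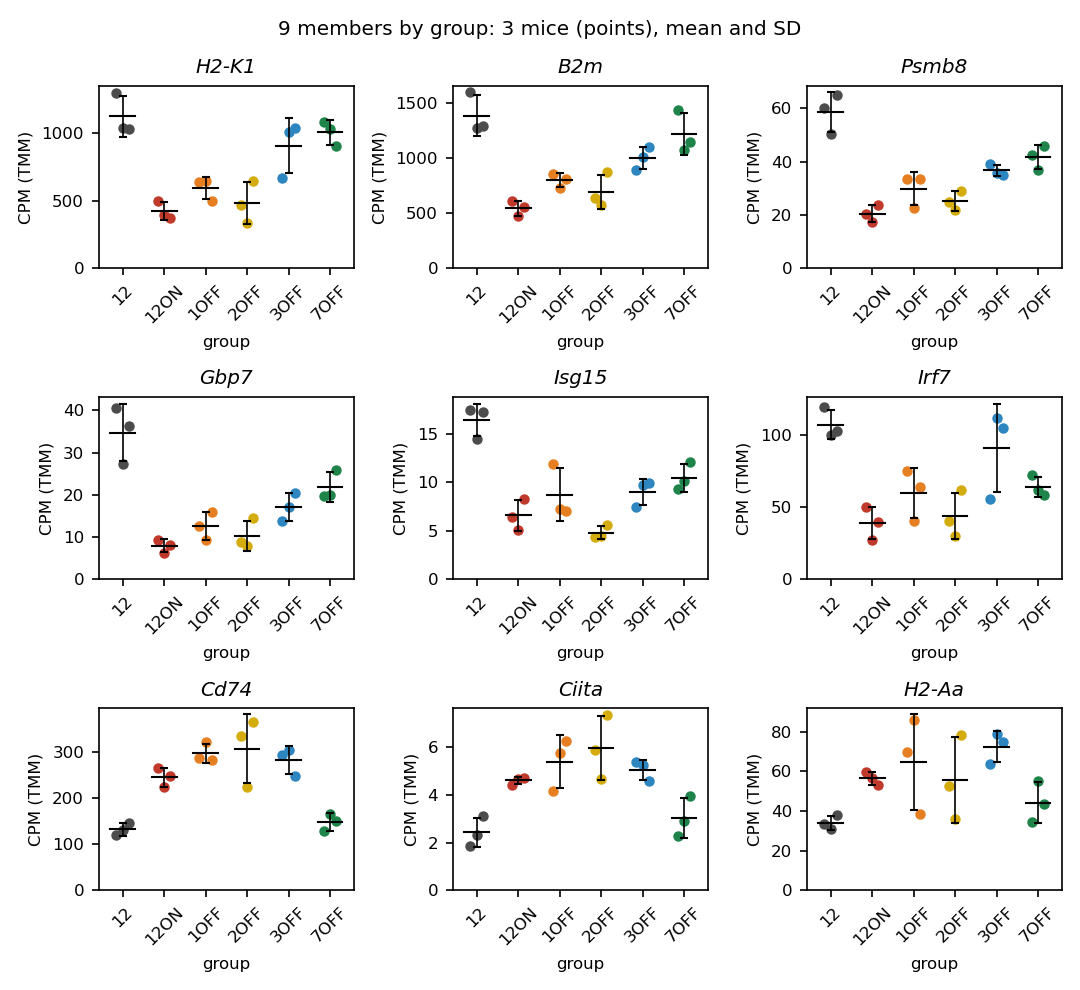
Levels of 9 members in CPM (vertical axes, from 0) in the 6 groups, with 3 mice as points and the mean and SD as lines and bars. The class I, GTPase and effector genes are highest in group 12 and low in 12ON and 2OFF, and Cd74 and Ciita are lowest in groups 12 and 7OFF.

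The first and last OFF groups share no library, and 7OFF was compared with 1OFF directly. Of the members 9 were higher at 7OFF and 3 lower, where 14.8% and 15.8% of all genes were. Cd74 fell most clearly, from 288, 322 and 284 CPM at 1OFF to 128, 167 and 150 CPM at 7OFF (log2 -1.01 ± 0.16, adjusted p = 0.000408). Xaf1 rose from 7.79, 6.39 and 6.91 CPM to 15.1, 11.0 and 14.5 CPM (log2 0.94 ± 0.19, adjusted p = 0.00164). Irgm1 rose from 42.8, 38.8 and 42.3 CPM to 50.2, 58.6 and 67.8 CPM (log2 0.51 ± 0.12, adjusted p = 0.00574). For these 3 genes the groups did not overlap, and the calls held without any 1 of the 6 libraries. With total counts and no scaling factor Irgm1 was not called (adjusted p = 0.172).

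Over all 6 groups, the mean of 33 of the 41 members was highest in group 12. The lowest mean was in 12ON for 18 members and in 2OFF for 15. The 5 members with their lowest mean in group 12 were the class II genes, and those with their highest mean at 2OFF were Cd74 and Ciita. Within groups, single mice were lowest or highest for most members. Replicate 2 was most often the lowest of its group in 12 (34 of the 41), 12ON (31), 1OFF (26) and 2OFF (23). In 3OFF (30) and 7OFF (25) it was replicate 1. The library 12ON replicate 2 was the highest for 0 members, and 2OFF replicate 3 was the highest for 34 and the lowest for 0. The median coefficient of variation of the members within a group ran from 14.9% in 12ON to 19.9% in 1OFF.

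H2-Eb1 stood apart in 2 libraries. It lay at 2.39 CPM in 1OFF replicate 3 and at 1.44 CPM in 2OFF replicate 2, and between 17.2 and 62.0 CPM in the other 16 libraries. H2-Ab1, its neighbour, lay at 35.3 and 32.6 CPM in those 2 libraries, within the 31.5 to 93.4 CPM of the rest. The ratio of H2-Eb1 to H2-Ab1 in RPKM was 0.0937 and 0.061 there and 0.681 to 1.05 in the others. The same 2 libraries had the highest ratios of Cd74 to H2-Ab1, 9.35 and 8.0 against 3.24 to 7.01 in the others, and the lowest ratios of H2-K1 to H2-D1, 0.538 and 0.563 against 0.813 to 1.94. The ratio of H2-Aa to H2-Ab1 stayed between 0.775 and 0.957 in all 18. The labels do not give the strain of any mouse, and MHC genes differ in sequence between strains. Whether these 2 mice carry other MHC alleles was not tested, and H2-Ea-ps, the partner gene of H2-Eb1, was not analysed here. The standard error of the H2-Eb1 difference was 0.85 to 0.87 in every comparison. Without both libraries the 1OFF vs 12 comparison gave 5 higher and 20 lower. The 12ON vs 12 count stayed at 34 members, but neither library is in those groups. That count could change only through the shared scaling, filter and spread.

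**Figure D4:**
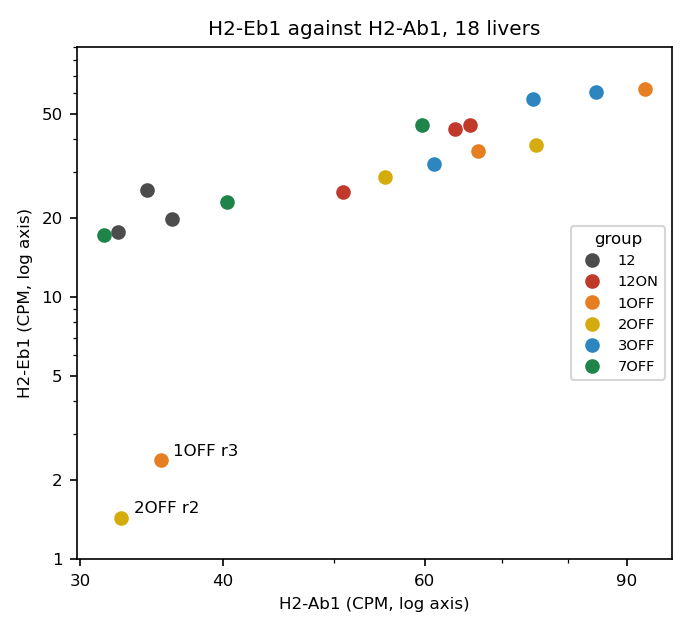
H2-Eb1 against H2-Ab1 in CPM, both on log axes, with 1 point per liver coloured by group. In 16 livers H2-Eb1 lies between 17.2 and 62.0 CPM, and the labelled livers 1OFF replicate 3 and 2OFF replicate 2 lie at 2.39 and 1.44 CPM.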

How the data were processed

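Poly-A libraries of 18 mouse livers were sequenced as single reads of 50 nt, 3 mice in each of 6 groups. The submitters' processing notes name Trim Galore for trimming, TopHat2 for alignment and the mm10 build, with versions not given in the sources used here. The deposited values are raw read counts per gene, made with featureCounts 1.5.0-p1 from the Ensembl 82 exon annotation (GRCm38), per the file headers. A read needed 10 bases of overlap, counted for every gene it overlapped and without strand, and multi-mapped reads were dropped. Totals ran from 23057899 to 75276898 counts per library.

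The tests used edgeR 4.0.16 (R 4.3.3). The filterByExpr function, set to 10 counts, left 17789 genes. All 18 libraries entered 1 quasi-likelihood fit with TMM scaling, which had 12 residual degrees of freedom and an overall BCV of 0.202. The 10 comparisons were two-sided F tests with Benjamini-Hochberg adjustment at 0.05. Each standard error was obtained by dividing the size of the log2 fold change by the root of F. RPKM divides CPM by exon length. The fit was tested on simulated data first.

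The members, the 18 further lists and the comparisons were chosen with earlier results of these data known. All members could be named, and of each other list up to 3 genes per direction with the smallest p in 12ON vs 12. The alternatives were other scalings and filters, DESeq2 1.42.0, 2 groups alone, terms for Xist, for the mitochondrial share and for the replicate number as a block, and leaving out each library. Leaving out the 2 libraries with low H2-Eb1 was added after seeing the data. Promoter sequences are from RefSeq in GRCm38.p6. Ighm, Trac and H2-Ea-ps were not analysed here, and some genes of the pathway are not reported.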

Additional observations from a re-analysis of the deposited data

Results flagged for a closer look

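The difference of 1OFF from 12ON and that of 7OFF from 12ON were compared through 7OFF minus 1OFF, in which the shared 12ON libraries cancel. By this test 12 of the 41 members differed between the 2 OFF groups (edgeR's quasi-likelihood test, adjusted p under 0.05), 9 higher and 3 lower at 7OFF, where 14.8% of all genes were higher and 15.8% lower. The count of 12 is near that background and is no result about the members as a list. Higher at 7OFF were Stat2 (log2 0.39), Irf9 (0.47), Gbp6 (1.03), Gbp7 (0.81), Psmb8 (0.48), B2m (0.61), H2-K1 (0.76), Irgm1 (0.51) and Xaf1 (0.94). Lower at 7OFF were Cd74 (-1.01), Ciita (-0.82) and Usp18 (-0.55). Calls of 9 of the 12 ended without at least 1 of the 6 libraries, and those of Cd74, Irgm1 and Xaf1 did not. The count was 7 without 1OFF replicate 2.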

How the results depend on the processing

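Under the 10 alternatives to scaling, filter, tool and covariates, 2 called members turned sign, both in 12ON vs 12 with total counts and no scaling factor, Psmb10 (0.00) and Tapbp (0.06), and so did Jak2 (0.17). That setting also gave 8 called members in 3OFF vs 12ON, 12 in 7OFF vs 12ON, 1 in 7OFF vs 12 (Gbp3) and 6 in 7OFF vs 1OFF. It moved the median of all genes by 0.34, 0.36, 0.17 and 0.07 in 1OFF, 2OFF, 3OFF and 7OFF against 12, and by -0.27 in 7OFF vs 1OFF. All genes then split into 6774 higher and 1018 lower, 7313 and 1137, 2990 and 667, 591 and 361, and 956 and 5259.

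A term for the mitochondrial share, which differs between groups, gave 19 called members in 12ON vs 12, 15 in 7OFF vs 12ON, 11, 16, 2 and 1 in 1OFF, 2OFF, 3OFF and 7OFF vs 12, and 4 in 7OFF vs 1OFF. The share of all genes called with this term is not given, so these counts cannot be read as particular to the members. DESeq2 gave 3 in 1OFF vs 12ON and 10 in 7OFF vs 12, and the fit of 2 groups alone gave 1 (Irf7) in 7OFF vs 12. Leaving out the 2 libraries with low H2-Eb1 gave 1 (Cd74) in 2OFF vs 12ON. Other scalings, other filters and the Xist term stayed within 1.5 times of each count.

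Leaving out 1 library gave 29 to 33 called members in 12ON vs 12, 0 in 1OFF vs 12ON, 0 to 1 in 2OFF vs 12ON, 9 to 17 in 3OFF vs 12ON, 16 to 24 in 7OFF vs 12ON, 19 to 24, 29 to 33, 10 to 15 and 0 to 5 in 1OFF, 2OFF, 3OFF and 7OFF vs 12, and 7 to 12 in 7OFF vs 1OFF.

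The labels do not say that a replicate number marks a shared litter, batch or day. Over 45 same-numbered pairs the correlation of deviations from the group means ran from -0.18 to 0.33 with a median of 0.01, and 11 were over 0.1, so the numbers were not treated as pairs. As a hint from the data, 12 of 18 libraries correlated best with a library of their own number. Libraries of the same number are a minority of those in the other groups, so this hint goes against treating the numbers as unrelated. With the replicate block, 7OFF vs 12 gave 6 members in place of 3, and 12ON vs 12 gave 32 in place of 34. It gave 21 in place of 17 in 3OFF vs 12ON, and 27 in place of 24 in 7OFF vs 12ON. With 3 mice per group, members at a few CPM, such as Mx1, Gbp5 and Ciita, have fewer counts than B2m or H2-K1 and so more counting error.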
